A study of Homo sapiens with 13 samples.

Results

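FLT3, KIT, CSF1R, CSF2RB and CSF3R encode receptors through which growth factors drive the survival, division and maturation of blood cells. These 5 genes, taken by name from the 20033 protein-coding genes of GENCODE version 44, were examined for chromatin peaks of PTBP1, a splicing regulator, and RUNX1, a hematopoietic transcription factor. Peaks were collected in each gene and up to 20 kb either side. All samples were MOLM-13, an established human acute myeloid leukemia line that carries an internal tandem duplication in FLT3, and the labels name no treatment or further genotype. CUT&Tag, in which an antibody brings a transposase to the bound protein so that nearby DNA is tagged for sequencing, was performed with 2 libraries for PTBP1 and 2 for RUNX1, among 13 libraries in the series. One peak list per target, with 9370 PTBP1 and 7688 RUNX1 peaks on hg38, was used. The lists name no assay and were assumed to come from these CUT&Tag libraries. The series also holds 2 libraries for each of these targets from another assay, CUT&Run. A single list has no replicates, so the values below carry counting error only and no test between conditions was possible.

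FLT3, KIT and CSF1R are class III receptor tyrosine kinases, which pair on binding FLT3 ligand, stem cell factor, or CSF1 and IL-34, and then phosphorylate themselves and their adaptors. CSF2RB is the common beta chain that signals for the GM-CSF, IL-3 and IL-5 receptors, and CSF3R is the receptor for G-CSF. Both are cytokine receptors without kinase activity that signal through JAK kinases and STAT factors. KIT marks stem and progenitor cells, whereas CSF1R and CSF3R mark the monocytic and granulocytic lineages. RUNX1 is known to take part in the control of several such genes, often from enhancers away from the promoter.

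RUNX1 peaks were found at 4 of the 5 receptor genes and PTBP1 peaks at 1, against 42.0% and 43.7% of all protein-coding genes. None lay at the transcription start site (TSS) of a receptor gene. Of all protein-coding genes, 22.4% had a RUNX1 peak and 27.5% a PTBP1 peak there. FLT3, KIT and CSF1R each had an intronic RUNX1 peak and no PTBP1 peak. CSF3R had a weak upstream site with both proteins, and CSF2RB had no peak of either. In all, the windows held 5 RUNX1 peaks and 2 PTBP1 peaks. The DNA within 50 bases of each of the 5 RUNX1 summits is shown because the sites differed in whether they held the RUNX motif. The plus strand of hg38 is given, and capitals mark matches to the RUNX motif, searched as TGTGGT and TGCGGT on both strands, or to the PU.1 core GAGGAA.
FLT3, chr13:28031602-28031702: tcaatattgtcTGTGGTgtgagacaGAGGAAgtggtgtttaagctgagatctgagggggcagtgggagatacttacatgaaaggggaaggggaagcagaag
KIT intron, chr4:54688302-54688402: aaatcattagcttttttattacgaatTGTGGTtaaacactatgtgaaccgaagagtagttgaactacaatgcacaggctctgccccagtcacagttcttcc
KIT downstream, chr4:54746437-54746537: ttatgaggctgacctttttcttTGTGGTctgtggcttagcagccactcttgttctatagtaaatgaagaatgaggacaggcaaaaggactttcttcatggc
CSF1R, chr5:150082002-150082102: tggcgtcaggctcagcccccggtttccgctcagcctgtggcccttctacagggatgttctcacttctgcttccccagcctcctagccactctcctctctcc
CSF3R, chr1:36486646-36486746: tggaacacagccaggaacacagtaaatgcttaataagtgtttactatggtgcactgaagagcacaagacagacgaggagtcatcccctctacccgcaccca

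**Figure D1:**
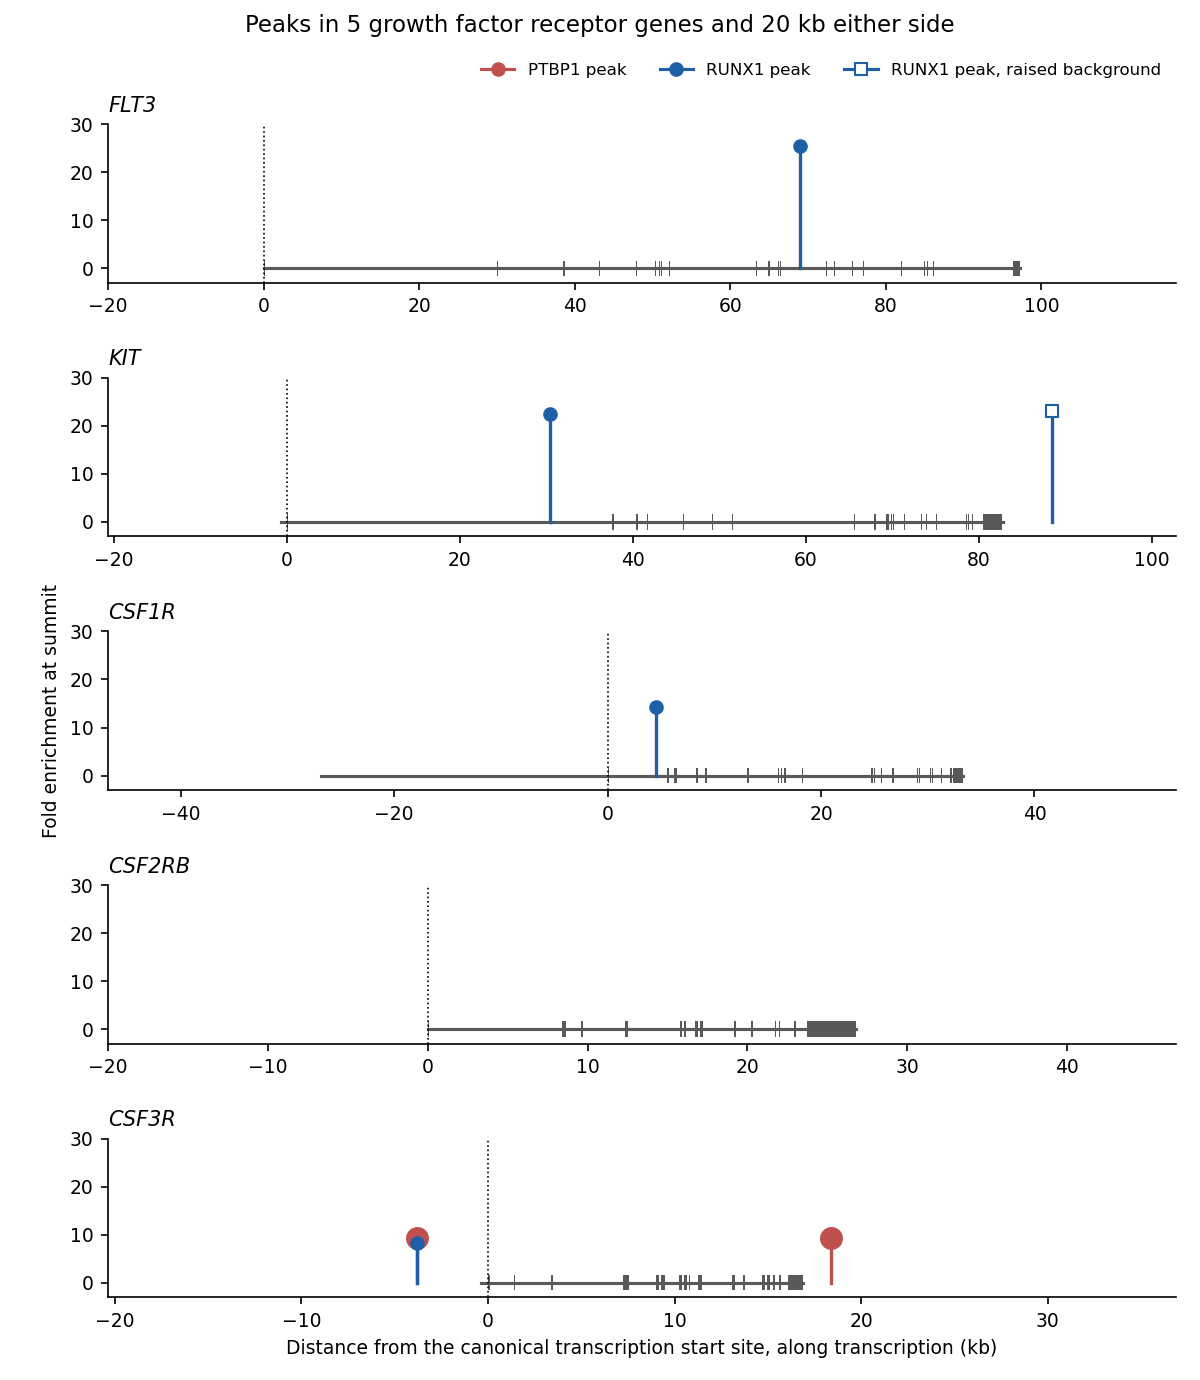
Each panel is 1 receptor gene with 20 kb either side; the horizontal axis is the distance from the canonical TSS in kb along transcription, and the vertical axis is the fold enrichment at the summit. Grey lines are the annotated genes, grey blocks the exons of the canonical transcript and stems the peaks of PTBP1 (red) and RUNX1 (blue, open square for a raised background). The stems stand away from the dotted TSS in every panel, and CSF2RB has none.

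Every site was described by the fold enrichment at its summit and by the number of fragments behind it. Fold enrichment is the ratio of fragment pileup to background, each with 1 added, as the authors' peak caller gave it. Fragments were recovered from the fold enrichment and the p-value of the peak, and their 95% exact Poisson intervals cover counting error only. In the RUNX1 list the median summit had 20 fragments and a fold enrichment of 15.0. In the PTBP1 list these values were 21 fragments and 12.2. The usual background was 0.330 fragments in the RUNX1 list and 0.720 in the PTBP1 list, so fold enrichments were compared only within a list. On those backgrounds the weakest called peaks had 8 and 11 fragments, and a site with up to 7 RUNX1 or 10 PTBP1 fragments could be present at these genes without appearing in the lists.

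FLT3 (chromosome 13, 28003274 to 28100592, minus strand) is the receptor whose mutated, ligand-independent form drives many acute myeloid leukemias. It had 1 RUNX1 peak, which spanned 28031397 to 28032345. At its summit 33 fragments were counted (22.7 to 46.3), a fold enrichment of 25.6. This was the highest fold enrichment among the receptor genes, and 78.8% of RUNX1 peaks had a lower one. The summit lay in intron 15 of the canonical transcript, 68.9 kb downstream of the TSS and 2235 bases from exon 15. Internal tandem duplications of FLT3 usually fall in exon 14, the juxtamembrane exon, which ended 2430 bases from this summit; the duplication itself was not analysed here. The RUNX motif nearest the summit was centred 37 bases from it, and the PU.1 core followed 8 bases further along the same strand. PU.1 is a myeloid transcription factor, and its core was within 50 bases of 12.4% of all RUNX1 summits. The peak held 3 RUNX motifs in all.

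KIT (chromosome 4, 54657267 to 54740783, plus strand) encodes the stem cell factor receptor and had 2 RUNX1 peaks. The first, at 54687810 to 54688646, lay in intron 1, 30.4 kb downstream of the TSS and 7160 bases from the nearest exon, in an intron of 37430 bases. Its summit had 29 fragments (19.4 to 41.6) and was enriched 22.6-fold. This interval overlapped that of the FLT3 peak, so the 2 sites could not be told apart in strength. The peak held 4 RUNX motifs, the nearest centred 22 bases from the summit.

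The other KIT peak, at 54746189 to 54746950, lay 5704 bases beyond the annotated end of the gene and 88.5 kb from its TSS. It had 85 fragments (67.9 to 105.1), the most of any peak at the receptor genes. Its background of 2.72 fragments was 8.24 times the usual level of the RUNX1 list, so that the fold enrichment, 23.1, was close to that of the intronic peak. A background above 1.5 times the usual level was present at 5.14% of RUNX1 peaks. The peak held 3 RUNX motifs, with the nearest centred 26 bases from the summit.

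CSF1R (chromosome 5, 150053291 to 150113372, minus strand) encodes the receptor that macrophages require for CSF1. Its RUNX1 peak spanned 150081924 to 150082505. With 18 fragments (10.7 to 28.4) and 14.3-fold enrichment, the summit was near the median of the list. The summit lay 4502 bases downstream of the canonical TSS in intron 1, which is intron 2 of a longer transcript that starts 26.8 kb further upstream. Intronic enhancer activity in this part of the gene is well known in macrophages, although whether the peak marks that element was not tested. The peak held no RUNX motif at any position. Among all RUNX1 peaks, 39.1% held none.

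CSF3R (chromosome 1, 36466043 to 36483278, minus strand), the receptor for the granulocyte growth factor G-CSF, was the receptor gene with PTBP1 peaks. Upstream of the gene, a PTBP1 peak at 36486597 to 36486988 overlapped a RUNX1 peak at 36486556 to 36486843. Their summits were 11 bases apart and 3.8 kb upstream of the TSS. The PTBP1 summit had 15 fragments (8.4 to 24.7) and was enriched 9.30-fold, and 21.2% of PTBP1 peaks were lower. The RUNX1 summit had 10 fragments (4.8 to 18.4) and was enriched 8.27-fold, and only 5.02% of RUNX1 peaks were lower. Its interval lay below those of the FLT3 and KIT peaks and overlapped that of the CSF1R peak. Neither peak held a RUNX motif.

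The other PTBP1 peak in the CSF3R window spanned 36464055 to 36464715, again with 15 fragments and 9.30-fold enrichment. Its summit lay 1509 bases past the 3-prime end of CSF3R and 150 bases from the TSS of MRPS15, a mitochondrial ribosomal protein gene. It was counted by position and cannot be assigned to CSF3R. It overlapped no RUNX1 peak.

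CSF2RB (chromosome 22, 36913628 to 36940439, plus strand), the shared signaling chain, was without peaks across its window of 66.8 kb. The nearest RUNX1 peak was 105.6 kb from its TSS and the nearest PTBP1 peak 285.1 kb away.

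**Figure D2:**
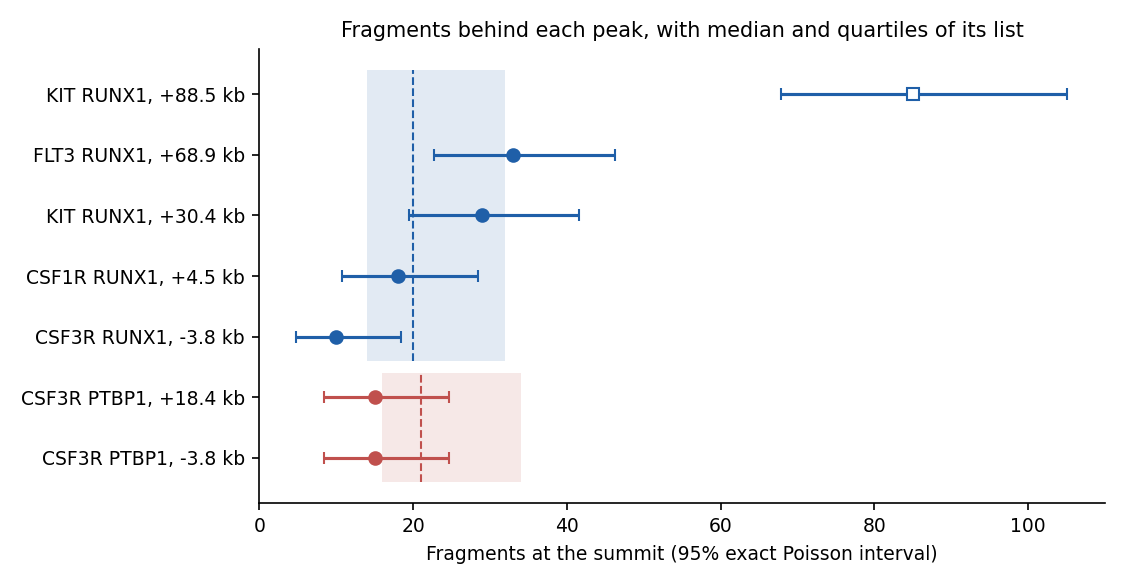
Points give the fragments at each summit with the 95% exact Poisson interval, and labels give the gene, the list and the distance of the summit from the TSS in kb. Shading and dashed lines mark the quartiles and median of each list. The RUNX1 sites run from 10 fragments at CSF3R to 85 downstream of KIT, where the open square marks a raised background, and both PTBP1 sites have 15.

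The counts were then set beside those of all protein-coding genes. A RUNX1 peak lay in the window of 4 of 5 receptor genes, and in that of 42.0% of all protein-coding genes. A PTBP1 peak lay in the window of 1 of 5, against 43.7% of all genes. RUNX1 without PTBP1 occurred at 3 of 5, FLT3, KIT and CSF1R, against 7.65%. No peak of either list occurred at 1 of 5, CSF2RB, against 48.7%. These are descriptions of 5 genes chosen by name, and longer genes have more room for a peak. The windows of the receptor genes had a median length of 100.1 kb against 67.5 kb for all protein-coding genes. Per 100 kb of window, the receptor genes had 1.03 RUNX1 peaks and 0.412 PTBP1 peaks, and all protein-coding genes had 0.626 and 0.991.

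At the TSS, defined as a peak within 1 kb of the 5-prime end of the canonical transcript, PTBP1 was absent from the list at all 5 receptor genes and RUNX1 likewise. Of all protein-coding genes, 27.5% had a PTBP1 peak there and 22.4% a RUNX1 peak. Using the 5-prime end of any annotated transcript of these genes, or a distance of 2000 bases, also gave 0 of 5. A RUNX1 peak in the window with no peak of either list at the TSS was the pattern of 4 of 5 receptor genes and of 15.4% of all protein-coding genes.

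The nearest RUNX1 peak was 3.6 kb from the TSS of CSF3R, 4.0 kb from that of CSF1R, 29.9 kb from that of KIT, 68.2 kb from that of FLT3 and 105.6 kb from that of CSF2RB. The nearest PTBP1 peak was 3.7 kb from the TSS of CSF3R, 125.6 kb from that of CSF1R, 285.1 kb from that of CSF2RB, 479.3 kb from that of FLT3 and 1290.8 kb from that of KIT. CSF3R was thus alone among the receptor genes in having both proteins close by. Of all protein-coding genes, 92.8% had a PTBP1 peak nearer to the TSS than KIT, and 80.9% nearer than FLT3. The medians over all protein-coding genes were 62.8 kb for RUNX1 and 64.5 kb for PTBP1.

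**Figure D3:**
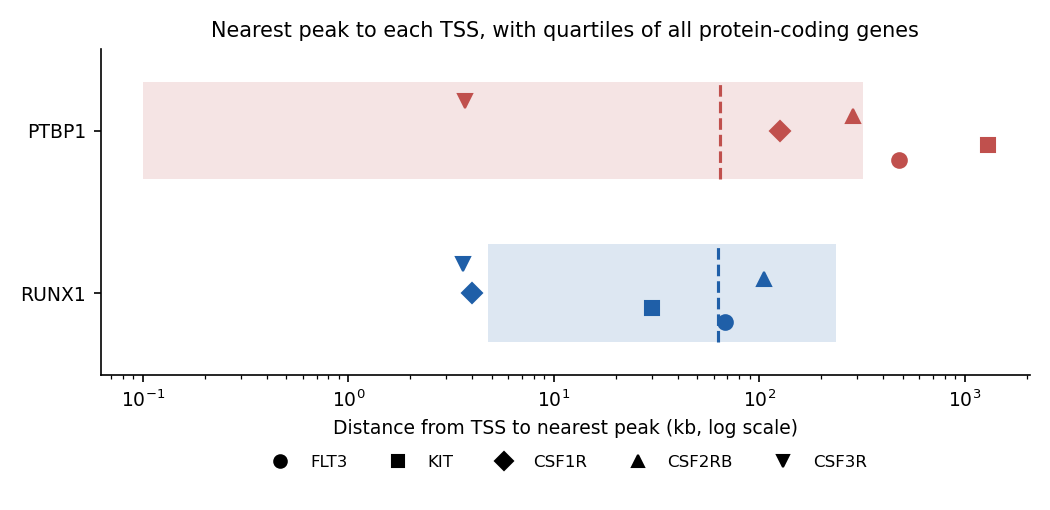
The horizontal axis is the distance in kb, on a log scale, from the canonical TSS to the nearest peak of each list, with 1 symbol per receptor gene. Shading spans the quartiles and the dashed line marks the median of all protein-coding genes. KIT and FLT3 lie above the upper quartile for PTBP1, at 1290.8 and 479.3 kb, while no receptor gene does so for RUNX1.

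Of the RUNX1 peaks at the receptor genes, 1 of 5 overlapped a PTBP1 peak, against 60.2% of all RUNX1 peaks. For PTBP1 the overlap was 1 of 2, against 49.2% of the whole list. The overlapping pair was the CSF3R upstream site. The whole lists include peaks at TSSs, whereas none of the 5 RUNX1 peaks lay at a coding TSS.

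A RUNX motif lay within 50 bases of 3 of the 5 RUNX1 summits, those of FLT3 and both KIT peaks, and all 3 matches were TGTGGT. Over the whole RUNX1 list the share was 24.2%, and over the 3057 RUNX1 peaks that overlapped no PTBP1 peak it was 38.9%. At least 3 motifs were present in these 3 of the 5 RUNX1 peaks, and the CSF1R and CSF3R peaks held none. The limit of 3 is the lowest count among the FLT3 and KIT peaks. The share with at least 3 was 12.1% of all RUNX1 peaks and 15.8% of those that overlapped no PTBP1 peak. Peak width differs, and wider peaks have more room for motifs. The FLT3 peak was 949 bases wide and the KIT peaks 837 and 762, against a list median of 645. The C/EBP motif TTGCNNAA and the GATA motif AGATAA, also searched on both strands, were within 50 bases of none of the 5 RUNX1 summits, against 3.99% and 2.29% of the list. Neither PTBP1 summit held the RUNX motif, which was found at 8.79% of all PTBP1 summits. Within 50 bases, the RUNX1 summits of KIT had a GC content of 39.6% and 42.6%, those of FLT3 and CSF3R 48.5% each and that of CSF1R 62.4%. The median of the list was 62.4%, so the KIT sites were AT-rich beside the whole list. That list includes TSS peaks, whereas none of the 5 RUNX1 peaks lay at a coding TSS. Runs of at least 12 pyrimidines were searched because PTBP1 binds pyrimidine-rich RNA, on either strand and without regard to the strand of the gene. They were present at the FLT3 and CSF1R summits and absent from both PTBP1 summits. The FLT3 run lay on the minus strand, as the gene does. The CSF1R run lay on the plus strand of a minus-strand gene, so its transcript would be purine-rich there. Such runs were found at 17.0% of all RUNX1 and 14.7% of all PTBP1 summits.

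Promoter sequence from RefSeq (GRCh38.p14, 250 bases before to 50 after the start) was matched for 4 of the 5 genes, FLT3, KIT, CSF1R and CSF3R, each at the canonical TSS. FLT3 and KIT had GC-rich promoters, with 74.0% and 74.3% GC and ratios of observed to expected CpG of 0.830 and 0.952. CSF1R had 54.0% GC and a CpG ratio of 0.183, and CSF3R had 62.7% and 0.306. The medians were 63.7% and 0.783 over 15345 protein-coding genes, and 67.7% and 0.878 where a PTBP1 peak lay at the TSS. FLT3 and KIT were thus above both GC medians, and CSF1R and CSF3R were below both medians of either measure. RefSeq lists a further start for CSF1R, 26.8 kb upstream, with 62.3% GC and a CpG ratio of 0.278, and for CSF3R, 401 bases upstream, with 44.3% and 0.204. At the canonical TSS, a RUNX motif was present in the promoters of FLT3, as TGCGGT beginning 48 bases before the start, and CSF1R, as TGTGGT beginning 71 bases before it, and in 18.6% of the protein-coding promoters. The PU.1 core was found once in FLT3 and CSF3R and 3 times in CSF1R, and at least once in 27.4% of protein-coding promoters. KIT had neither motif.

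A list of 54 other genes of growth factor signaling placed the receptors beside their ligands and downstream proteins. Of these 54, PTBP1 had a TSS peak at 21 (38.9%, against 27.5% of all protein-coding genes), RUNX1 at 21 (38.9%, against 22.4%) and both at 15 (27.8%, against 18.2%). The groups that follow are small, and the same shares of all genes apply to each. Among 14 other receptors, 7 had a PTBP1 and 6 a RUNX1 peak at the TSS. Among 8 ligands, none had either. Kinases and adaptors had them at 5 and 7 of 15 genes, STAT factors at 1 and 0 of 3, negative regulators at 4 and 6 of 9, and transcriptional targets of the pathway at 4 and 2 of 5. The 5 receptor genes shared with the ligand genes the absence of any TSS peak, although RUNX1 peaks lay in the windows of 4 of 5 receptor genes and 2 of 8 ligand genes. Window RUNX1 peaks were also frequent at 10 of 14 other receptors, 11 of 15 kinases and adaptors, 8 of 9 negative regulators and 5 of 5 targets. STAT factors had them at 1 of 3. Of all 54 pathway genes the share was 68.5%, against 42.0% of all protein-coding genes.

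The strongest RUNX1 sites of this list were at PIM1, INPP5D and IFNGR1. PIM1, a survival kinase induced by STAT5, had a RUNX1 fold enrichment of 80.5 at its TSS, overlapping a PTBP1 peak of 33.1. INPP5D, which encodes the inositol phosphatase SHIP1, had 79.7 at an intragenic site that overlapped a PTBP1 peak of 26.2. IFNGR1, an interferon gamma receptor chain, had 60.9 at its TSS, overlapping a PTBP1 peak of 29.1. All 3 had higher fold enrichments than any RUNX1 peak at the 5 receptor genes. By fragments, the interval of the peak downstream of KIT overlapped those of all 3, and its 85 fragments were above the 80 at IFNGR1. That KIT peak lay on a raised background of 2.72 fragments, and its fold enrichment was only 23.1. Among the strongest PTBP1 sites were those in the windows of IL3RA (113) and EPOR (58.1), which lay at the TSSs of the neighboring genes SLC25A6 and SWSAP1.

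CSF2RB pairs with an alpha chain to bind each of its ligands, and the alpha chains were picked out for this reason with their values known. CSF2RA, the GM-CSF receptor alpha chain, had PTBP1 and RUNX1 peaks at its TSS, with highest fold enrichments in its window of 12.2 and 19.5. IL3RA had a PTBP1 peak of 11.6 at its TSS and no RUNX1 peak there. IL5RA had a single RUNX1 peak of 8.27, which lay at the TSS of TRNT1. CSF2RA and IL3RA lie in the pseudoautosomal region, where X and Y copies are alike, and the authors kept only reads above a mapping quality threshold, and whether the Y copy was masked is not given in the sources used here.

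Likeness between genes was measured by 4 yes-or-no calls, a PTBP1 or a RUNX1 peak at the TSS and elsewhere in the window. FLT3, KIT and CSF1R shared all 4 calls, as did 5 of the 54 pathway genes, CCND2, GAB2, IL3, IL5RA and SOCS2, and 4.52% of the other protein-coding genes. Of these, GAB2 had its RUNX1 peak inside the gene and away from any coding TSS, with a fold enrichment of 14.3, the same as at CSF1R. SOCS2 also had its RUNX1 peak inside the gene, with 8.27, but only 1049 bases from its own TSS, just beyond the 1 kb limit. CSF3R shared all 4 calls with 7 pathway genes, the closest in number of peaks being SHC1, followed by FLT3LG, JAK3, SH2B3 and STAT5B and then GRB2, and with 10.9% of other protein-coding genes. All peaks in the windows of SHC1 and JAK3 lay at the TSSs of other genes, as 1 of the peaks at CSF3R did, whereas the peaks of SH2B3 lay in the gene. At SHC1, the overlapping PTBP1 and RUNX1 peaks at CKS1B also covered the annotated 5-prime end of SHC1, upstream of its canonical TSS.

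**Figure D4:**
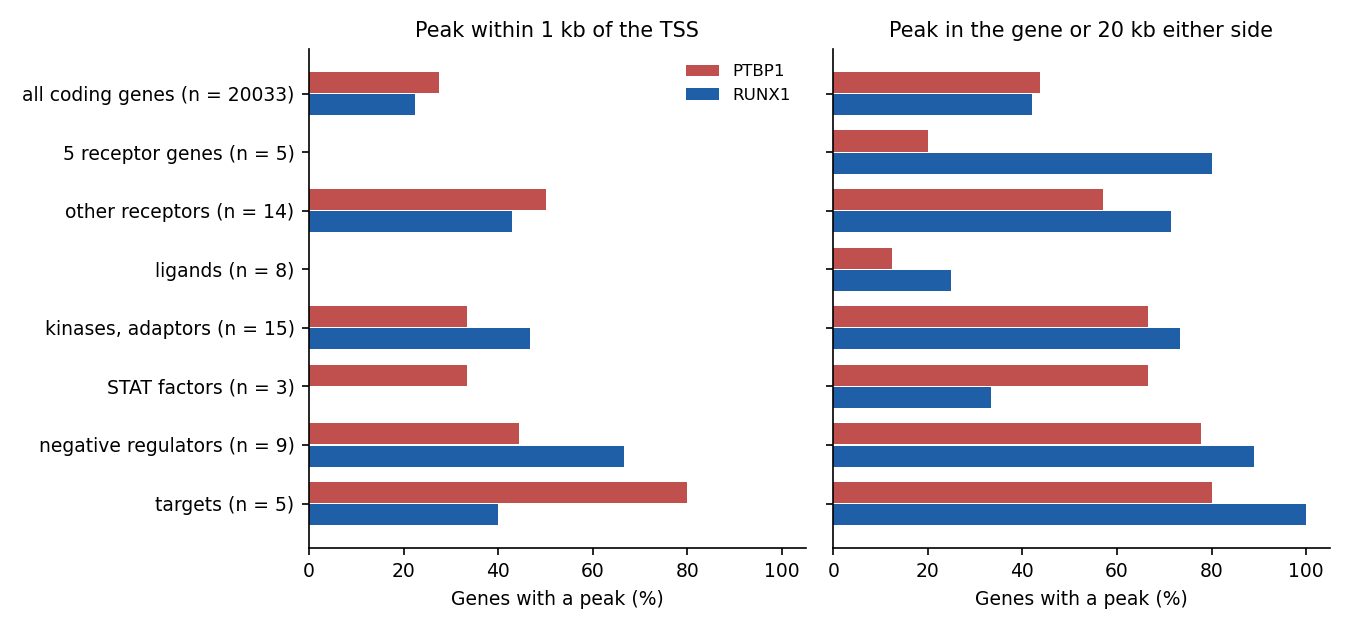
Bars give the percentage of genes in each set with a PTBP1 (red) or RUNX1 (blue) peak, within 1 kb of the TSS on the left and in the gene or 20 kb either side on the right, with the number of genes beside each name. The 5 receptor genes and the 8 ligands have no bar on the left, and on the right the receptor genes have RUNX1 peaks at 4 of 5 and PTBP1 peaks at 1 of 5.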

How the data were processed

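The authors called peaks with MACS3, requiring a q-value of 1e-07, on MOLM-13 reads that Bowtie2 had placed on hg38. Duplicates and reads of low mapping quality had been removed. For the RUNX1 antibody, the labels name Abcam and the study's antibody list names Invitrogen. The 2 deposited lists give, for each peak, the fold enrichment (a ratio), −log10 p-values and −log10 q-values, a score derived from the q-value and the summit. Both were read as CUT&Tag results, the assay for which peak calling is described. Whether replicates were pooled or which control was used is not given in the sources used here.

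Genes and canonical transcripts came from GENCODE version 44, and sequence from hg38. Of several RefSeq starts, the one nearest the canonical TSS was used. A peak belonged to a gene when any base lay in the gene or 20 kb either side. It was at the TSS within 1000 bases of the canonical 5-prime end, and otherwise placed by its summit. Overlap required 1 base. Summit fragments and background were solved from fold enrichment and p-value, and the refitted −log10 p-values differed from the deposited ones by at most 0.00134. Depth is known only as these fragments. Coordinates are 1-based.

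The members, gene lists and alternatives were chosen with earlier results of these data known. Named genes were the 5 receptors, pathway genes sharing all 4 calls (at most 6 for each receptor) and those with the 3 highest fold enrichments in either list, of which 1 PTBP1 site is not reported here. The alpha chains were also named, after their values were seen. No test was run. Procedures were tested on simulated data. Python 3.11.15, numpy 2.4.6, pandas 2.3.3, scipy 1.17.1, pysam 0.24.0 and matplotlib 3.10.9 were used.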

Additional observations from a re-analysis of the deposited data

Results flagged for a closer look

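The background implied by fold enrichment and p-value entered the counts only through an alternative that left out peaks above 1.5 times the usual level. It was 2.72 fragments at the RUNX1 peak downstream of KIT, against a usual 0.330. The same multiple of the usual level was found, within 1%, at 289 of the 395 RUNX1 peaks with a raised background. No control library was analysed here, and the part of the control signal in this peak was not tested. Without the peak, KIT kept its intronic RUNX1 peak and the receptor genes had 4 RUNX1 peaks.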

How the results depend on the processing

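Of 48 alternatives over 9 counts, 44 stayed within 1.5 times the reported count. Restricting the windows to the annotated genes gave 0 PTBP1 peaks, 0 receptor genes with a PTBP1 peak and 3 RUNX1 peaks. Leaving out peaks at the TSS of another protein-coding gene removed the MRPS15 site and gave 1 PTBP1 peak. The count of receptor genes with a TSS peak was 0 under the 5 alternatives tried for each list. Requiring a −log10 q-value of at least 10, or a peak over the TSS base, only narrows the rule. A count of 0 cannot change under these settings, so they do not check it. The 5-prime end of the gene or of any transcript, and a distance of 2000 bases, also gave 0. With 0 for each list, the count with both lists at the TSS was necessarily 0. These fixed outcomes are among the 44. Flanks of 50 kb added 1 RUNX1 peak, for 6 in all. No paired analysis was possible because each target has a single peak list without replicates. Depth limits the absences, since sites with up to 7 RUNX1 or 10 PTBP1 fragments were not callable.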

Other observations

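The wider neighborhoods of the receptor genes differed in how many peaks they held. Within 500 kb either side of the TSS, KIT had 0 PTBP1 and 2 RUNX1 peaks, both of them the peaks already described, and FLT3 had 1 and 3. CSF1R had 4 of each and CSF3R 10 of each. CSF2RB, with no peak in its own window, had 10 PTBP1 and 18 RUNX1 peaks within that distance.

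The next peaks beyond the windows lay mostly at other genes. For CSF2RB the closest was a RUNX1 peak 78.8 kb from the gene with a fold enrichment of 25.6, at the TSSs of TST and MPST, which encode sulfurtransferases. For FLT3 it was a RUNX1 peak of 7.52 at 49.6 kb, away from any coding TSS, and the next PTBP1 peak, 382.0 kb away with 15.7, lay at the TSSs of LNX2 and POLR1D. For KIT the next RUNX1 peak, 805.5 kb away with 12.03, lay at the TSS of the circadian factor CLOCK. For CSF1R the next PTBP1 peak, 92.3 kb away with 14.5, lay at the TSS of the sulfate transporter SLC26A2. For CSF3R the next peaks of both lists overlapped each other, 64.5 kb from the gene for PTBP1 with 18.0 and 64.4 kb for RUNX1 with 27.8.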
